A study of Mus musculus with 56 samples.

Results

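The peaks of 5 interleukin genes were followed in mouse bone marrow-derived macrophages (BMDMs), those of Il6, Il12a, Il12b, Il23a and Il27. Their members were all ChIP-seq peaks to which the deposited lists gave one of these 5 names. They numbered 822 of the 1610519 peaks in 56 lists, of which 262 were named for Il6, 166 for Il12a, 217 for Il12b, 72 for Il23a and 105 for Il27. A peak takes the name of the gene with the nearest start site, so the name is a position and does not show which gene a site acts on.

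The macrophages came from wild-type C57BL/6 mice of 8 to 12 weeks and were differentiated for 6 days with L929 cell supernatant as the source of growth factor. In the 1 hr experiment, cells left untreated (ctrl) and cells given IL-4 at 20 ng/ml for 1 hr (IL-4) were profiled with 8 antibodies, to RNA polymerase II phosphorylated at serine 5 (RNAPII-pS5, the form near sites of initiation) or serine 2 (RNAPII-pS2, the elongating form), acetylated histone H3 lysine 27 (H3K27Ac, a mark of active regulatory sites), the lineage factor PU.1, the acetyltransferase p300, and the histone deacetylases HDAC1, HDAC2 and HDAC3. In the pretreatment (PT) experiment, cells without or with 24 hr of IL-4 were then left alone or given LPS, a bacterial activator of Toll-like receptor 4, for 1 hr at 100 ng/ml, which makes 4 groups, ctrl/ctrl and ctrl/LPS without pretreatment and IL-4 PT/ctrl and IL-4 PT/LPS with it, profiled for RNAPII-pS5, RNAPII-pS2 and p65, the NF-κB subunit. Every group has 2 lists per antibody. The study describes its replicates as independent biological ones.

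IL-6 is a cytokine of the acute phase response, and its receptor signals through the shared subunit gp130, encoded by Il6st. The IL-12 family is built from paired subunits: p35 (Il12a) and p40 (Il12b) form IL-12, p19 (Il23a) pairs with the same p40 to form IL-23, and p28 (Il27) pairs with EBI3 to form IL-27. In macrophages these genes are classical targets of Toll-like receptor signalling, with NF-κB among their activators, whereas IL-4 acts through STAT6.

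The value of a peak is its score, the deposited -log10 of a p or q value, and for H3K27Ac the normalized tag number of a region of fixed width. A gene takes the sum over its peaks in a list, and a site the highest score of its peaks there. Read depth is unknown; the lists hold 8440 to 71027 peaks each. Peaks of the macrophage genes Csf1r, Adgre1, Spi1, Lyz2, Cd68 and Mertk outside intergenic sequence were found for 3 to 6 of the 6 in each of the 28 polymerase and H3K27Ac lists. For the other cell types, the counts were 1 to 2 of 2 dendritic cell markers (Flt3 and Zbtb46), 0 to 1 of 3 neutrophil markers (Elane), 0 to 1 of 3 T cell markers (Lck), and none of the B cell and fibroblast markers. One conflict in the labels bears on RNAPII-pS2 at 1 hr: the peaks of both lists labelled ctrl are named IL4 and those of both lists labelled IL-4 are named vehicle. The labels were kept, and exchanging them would turn the sign of every RNAPII-pS2 difference there. The labels also give the HDAC3 antibody the catalogue number of the H3K27Ac antibody. A lower score in bulk cells may reflect fewer cells with a bound site or less binding per cell, and these cannot be told apart.

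Most member peaks lay outside the genes. In all, 608 of the 822 were annotated as intergenic, and the share was 91.6% for Il12a, 81.6% for Il12b, 78.2% for Il6, 68.6% for Il27 and 2.78% for Il23a. Peaks that overlapped in any list were merged into 86 elements, 31 for Il6, 20 for Il12a, 21 for Il12b, 4 for Il23a and 10 for Il27, and each is named by its distance from the start site in kb, negative upstream. The Il6 elements reached from -138 to +26.97 kb, and those of Il12b from -225 to +15.6 kb. The genes themselves lie, in mm10, at chr5:30013114-30019981 (Il6, plus strand), chr3:68690644-68698547 (Il12a, plus), chr11:44400063-44414033 (Il12b, plus), chr10:128296139-128298752 (Il23a, minus) and chr7:126589010-126594941 (Il27, minus). The element found in most lists was Il6 -64.8 kb, in 55 of the 56, which lies in an exon of the noncoding gene Gm43386. The Il23a +4.6 kb element lies between Il23a and the neighbouring gene Stat2, whose gene body ends within 1 kb of it, and 29 of the 72 Il23a peaks were annotated at a transcription end.

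The sequences of the Il6 promoter and of 6 selected p65 sites are shown here, as the plus strand of mouse GRCm38.p6 from RefSeq, written 5′ to 3′. The selection does not show how often member p65 sites hold a match, for which the shares are given below. Capitals mark matches to the NF-κB (κB) consensus or to the STAT letters TTCNNNNGAA, searched on both strands; the remaining bases are in lower case. The first is the Il6 promoter, the 250 bases before the start site, whose single κB match has its first base at -44, and the other 6 are the middle 200 bases of p65 sites. Il12b -9.8 kb, Il6 -92.8 kb and Il27 -1.2 kb hold κB matches (overlapping matches run together in the last 2), Il12a -52.8 kb holds a κB and a STAT match, Il6 -64.8 kb holds a STAT match, and Il12a -28.2 kb holds neither.
Il6 promoter, chr5:30012864-30013113: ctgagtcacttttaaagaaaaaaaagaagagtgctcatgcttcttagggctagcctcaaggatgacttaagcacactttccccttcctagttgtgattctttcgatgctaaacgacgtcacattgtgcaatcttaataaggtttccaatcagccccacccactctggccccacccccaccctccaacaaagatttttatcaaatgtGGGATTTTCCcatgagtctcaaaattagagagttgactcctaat
Il12b -9.8 kb, chr11:44390173-44390372: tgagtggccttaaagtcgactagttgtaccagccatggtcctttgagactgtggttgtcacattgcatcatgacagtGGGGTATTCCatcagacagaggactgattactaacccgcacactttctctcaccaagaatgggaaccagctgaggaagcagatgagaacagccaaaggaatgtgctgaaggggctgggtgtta
Il6 -92.8 kb, chr5:29920380-29920579: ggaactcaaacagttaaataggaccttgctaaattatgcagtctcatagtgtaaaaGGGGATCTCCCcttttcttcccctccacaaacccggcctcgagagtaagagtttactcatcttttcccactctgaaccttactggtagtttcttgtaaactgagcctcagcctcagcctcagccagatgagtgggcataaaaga
Il27 -1.2 kb, chr7:126596022-126596221: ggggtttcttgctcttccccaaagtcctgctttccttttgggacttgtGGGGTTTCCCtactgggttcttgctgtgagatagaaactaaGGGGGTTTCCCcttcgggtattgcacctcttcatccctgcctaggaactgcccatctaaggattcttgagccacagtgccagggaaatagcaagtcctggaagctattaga
Il12a -52.8 kb, chr3:68637797-68637996: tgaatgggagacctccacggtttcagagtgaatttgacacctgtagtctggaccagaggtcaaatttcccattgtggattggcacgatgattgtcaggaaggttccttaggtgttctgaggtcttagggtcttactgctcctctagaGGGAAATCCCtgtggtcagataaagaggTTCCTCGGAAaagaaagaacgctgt
Il6 -64.8 kb, chr5:29948287-29948486: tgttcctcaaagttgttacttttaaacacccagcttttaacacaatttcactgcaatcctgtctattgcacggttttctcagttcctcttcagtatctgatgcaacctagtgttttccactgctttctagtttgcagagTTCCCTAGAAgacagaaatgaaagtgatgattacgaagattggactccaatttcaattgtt
Il12a -28.2 kb, chr3:68662325-68662524: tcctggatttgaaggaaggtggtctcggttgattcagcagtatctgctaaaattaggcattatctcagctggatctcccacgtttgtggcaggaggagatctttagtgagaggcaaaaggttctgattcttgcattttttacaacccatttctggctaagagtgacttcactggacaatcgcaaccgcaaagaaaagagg

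Across all 51399 p65 windows of 200 bases, 10.9% held a κB match, against 9 of the 47 member windows. The STAT letters with a spacer of 4 stood in 8.27% of all windows and in 5 of 47 member windows, and those with a spacer of 3 (TTCNNNGAA) in 8.52% and in 5. The ETS letters GAGGAA, bound by PU.1, stood in 34.4% and in 19, TGANTCA (AP-1) in 22.1% and in 5, and TTGCNNAA (C/EBP) in 14.6% and in 8. Of 32841 RefSeq promoters, 3.9% held a κB match in the 250 bases before the start; those of Il12a (both of its starts) and Il12b held none. These are matches of letters and not evidence of a bound site.

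LPS was compared between ctrl/LPS and ctrl/ctrl. Summed over all peaks named for a gene, p65 scores were higher in both ctrl/LPS lists than in both ctrl/ctrl lists for all 5 genes. The share of all genes in that order was not counted. The scores of Il12b were 20.1 and 28.8 in ctrl/ctrl and 269 and 271 in ctrl/LPS. Il27 went from 8.72 and 4.1 to 114 and 100.2. Il12a had no p65 peak in either ctrl/ctrl list and summed scores of 167 and 187 in ctrl/LPS. Each of these 3 genes was called by limma with Benjamini-Hochberg adjustment (adjusted p of at most 0.05). The change was 1.85 ± 0.27 log2 units (SE, n = 2 lists per group, adjusted p = 0.0050) for Il12b and 2.52 ± 0.44 (adjusted p = 0.0084) for Il27. Il12a had adjusted p = 0.00074, and no fold is given for it because no ctrl/ctrl peak was listed. These changes are relative to a general rise: scores of genes with peaks in all p65 lists were 1.64 log2 units higher in ctrl/LPS, and this was subtracted. The p65 lists also grew from between 9556 and 9706 peaks to between 26305 and 26820. Il6 (77.8 and 85.7 against 288 and 289.5) and Il23a (3.92 and 4.88 against 26.1 and 43.3, adjusted p = 0.061) were not called beyond that rise, and without the subtraction all 5 genes were called. The 3 of 5 stand beside 30.9% of all genes called.

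**Figure D1:**
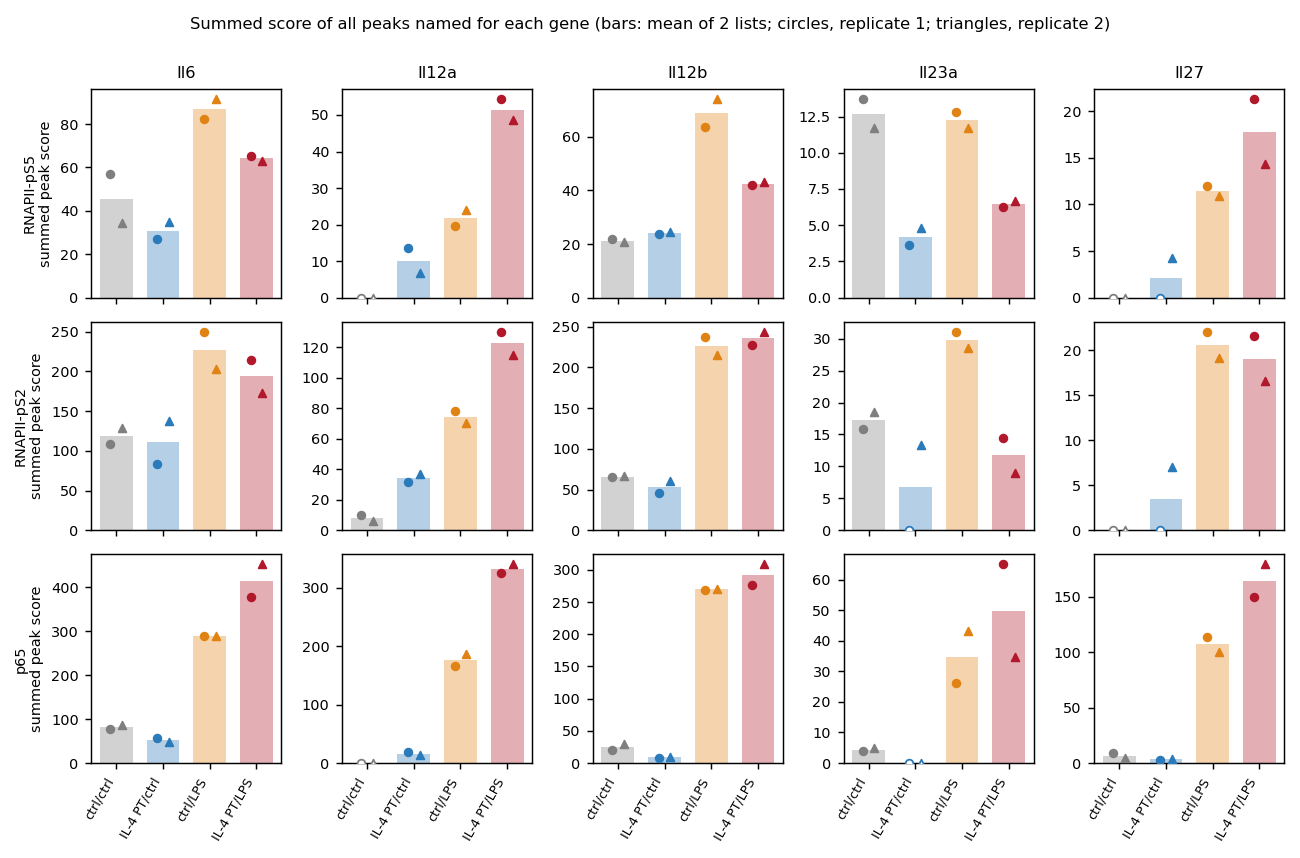
Summed peak scores (y axis) of each gene (columns) for 3 antibodies (rows) in the 4 conditions of the pretreatment experiment; bars are means of 2 lists, symbols the lists, and open symbols at 0 lists without a peak. p65 scores of Il12b rise from 20.1 and 28.8 in ctrl/ctrl to 269 and 271 in ctrl/LPS, and those of Il12a are highest in IL-4 PT/LPS, at 325 and 340.

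The polymerase lists showed LPS changes at the same genes. RNAPII-pS5 scores of Il12b were 21.7 and 20.9 in ctrl/ctrl and 63.6 and 74.1 in ctrl/LPS (2.01 ± 0.25 log2 units, adjusted p = 0.0035), and those of Il6 were 56.8 and 34.6 against 82.2 and 91.6 (1.29 ± 0.32, adjusted p = 0.029; limma, n = 2 and 2). Il12a (19.7 and 23.9) and Il27 (12.0 and 10.9) had RNAPII-pS5 peaks in ctrl/LPS and none in ctrl/ctrl, with adjusted p = 0.0019 and 0.0073. The exception was Il23a, at 13.7 and 11.7 in ctrl/ctrl and 12.8 and 11.7 in ctrl/LPS. These peaks lay at +4.6 kb next to Stat2, except for 1 of 3.14 at +2.8 kb, and none lay at Il23a itself. The 4 called genes stand beside 27% of all genes. The Il6 call was lost without ctrl/ctrl replicate 2 (adjusted p = 0.114) or either ctrl/LPS list (0.0790 and 0.0944), without centring (0.0758), with the replicate block (0.0530), with the upper 50% of peaks (0.0923) and with only the 4 lists compared (0.0535). With the highest Il6 peak in place of the sum the change was -0.0768 log2 units, since that peak, at -64.8 kb, scored 50.9 and 34.6 in ctrl/ctrl and 29.7 and 39.4 in ctrl/LPS.

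For elongating RNAPII-pS2, Il12a rose from 9.83 and 6.25 to 78.1 and 70.0 (3.02 ± 0.27 log2 units, adjusted p = 0.0011) and Il12b from 65.04 and 66.8 to 237 and 216 (1.55 ± 0.22, adjusted p = 0.0054; limma, n = 2 and 2). Il27 had no RNAPII-pS2 peak in ctrl/ctrl and 22.1 and 19.2 in ctrl/LPS (adjusted p = 0.012). Il6 (109 and 128 against 249.9 and 203) and Il23a (15.9 and 18.5 against 31.1 and 28.5) also lay higher in both ctrl/LPS lists but were not called. At the Il23a promoter (-0.4 kb) RNAPII-pS2 scored 7.97 and 10.8 in ctrl/ctrl and 26.7 and 25.2 in ctrl/LPS, also without a call. The 3 called genes compare with 27.9% of all genes. Without any one of the 4 lists compared, 2 of the 3 remained called.

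In ctrl/LPS most of the Il12b polymerase signal came from upstream sites. Inside the gene, a single polymerase peak was listed in this experiment, for RNAPII-pS2, with a score of 3.36 at +2.0 kb in ctrl/LPS replicate 2. Restricted to peaks not annotated as intergenic, the LPS change of Il12b turned, to -1.16 for RNAPII-pS5 and -3.38 for RNAPII-pS2 on the log2 scale. A list whose peaks are all annotated as intergenic takes the lowest score in this setting. These sizes therefore do not measure a fall at the gene. By site, RNAPII-pS5 at +14.9 kb scored 9.86 and 11.5 in ctrl/ctrl and 8.67 and 9.19 in ctrl/LPS. The site behind the rise was -9.8 kb, where RNAPII-pS2 scored 126 and 124 in ctrl/LPS, with no peak and 2.66 in ctrl/ctrl (5.83 ± 0.37 log2 units, adjusted p = 0.00044, limma, n = 2 and 2). In the same element RNAPII-pS5 scored 32.1 and 36.1 and p65 108 and 104 in ctrl/LPS, with no peak of either in ctrl/ctrl (adjusted p = 0.0011 and 0.00030). In contrast, RNAPII-pS2 fell at the downstream +14.9 kb element, from 20.6 and 21.5 to 10.01 and 8.99 (-1.34 ± 0.36 log2 units, adjusted p = 0.033).

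By site, 18 of the 29 member p65 sites with a peak in ctrl/ctrl or ctrl/LPS were called, all of them higher with LPS. Over all p65 sites 39.6% were called and 33.9% were called higher. The called Il12b sites included -27.1 kb, at 5.14 and 5.38 in ctrl/ctrl and 59.2 and 55.96 in ctrl/LPS (2.41 ± 0.26 log2 units, adjusted p = 0.0016). The called Il12a sites were -57.9 kb (28.3 and 20.2 in ctrl/LPS), -56.9 kb (45.4 and 64.2), +2.2 kb (31.6 and 45.5) and +18.2 kb (61.4 and 54.9), none with a peak in ctrl/ctrl. At the Il6 promoter, where the κB match stands, p65 had no peak in ctrl/ctrl replicate 1, 3.86 in replicate 2, and 48.1 and 51.9 in ctrl/LPS (3.43 ± 0.79, adjusted p = 0.017).

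Farther upstream of Il6, p65 peaks appeared with LPS at -132.9 kb (58.5 and 49.5), -118.1 kb (6.49 and 6.48) and -92.8 kb (16.0 and 12.8), and downstream at +26.9 kb (9 and 10.4). None of these had a ctrl/ctrl peak, and all 4 were called. The constitutive Il6 -64.8 kb element differed from them, with p65 at 70.6 and 81.8 before LPS and 128 and 135 after, and was not called beyond the general shift of 1.04 log2 units between sites. At the Il23a promoter (-0.4 kb) p65 rose from 3.92 and 4.88 to 26.1 and 24.9 (1.496 ± 0.189, adjusted p = 0.0030, limma, n = 2 and 2). Il27 had called sites at -1.2 kb (5.17 and no peak against 40.5 and 35.2; 2.81 ± 0.63, adjusted p = 0.016) and, without a ctrl/ctrl peak, at -4.3 kb (23.8 and 18.5), -9.0 kb (17.3 and 19.6) and -12.1 kb (21.0 and 13.9).

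**Figure D2:**
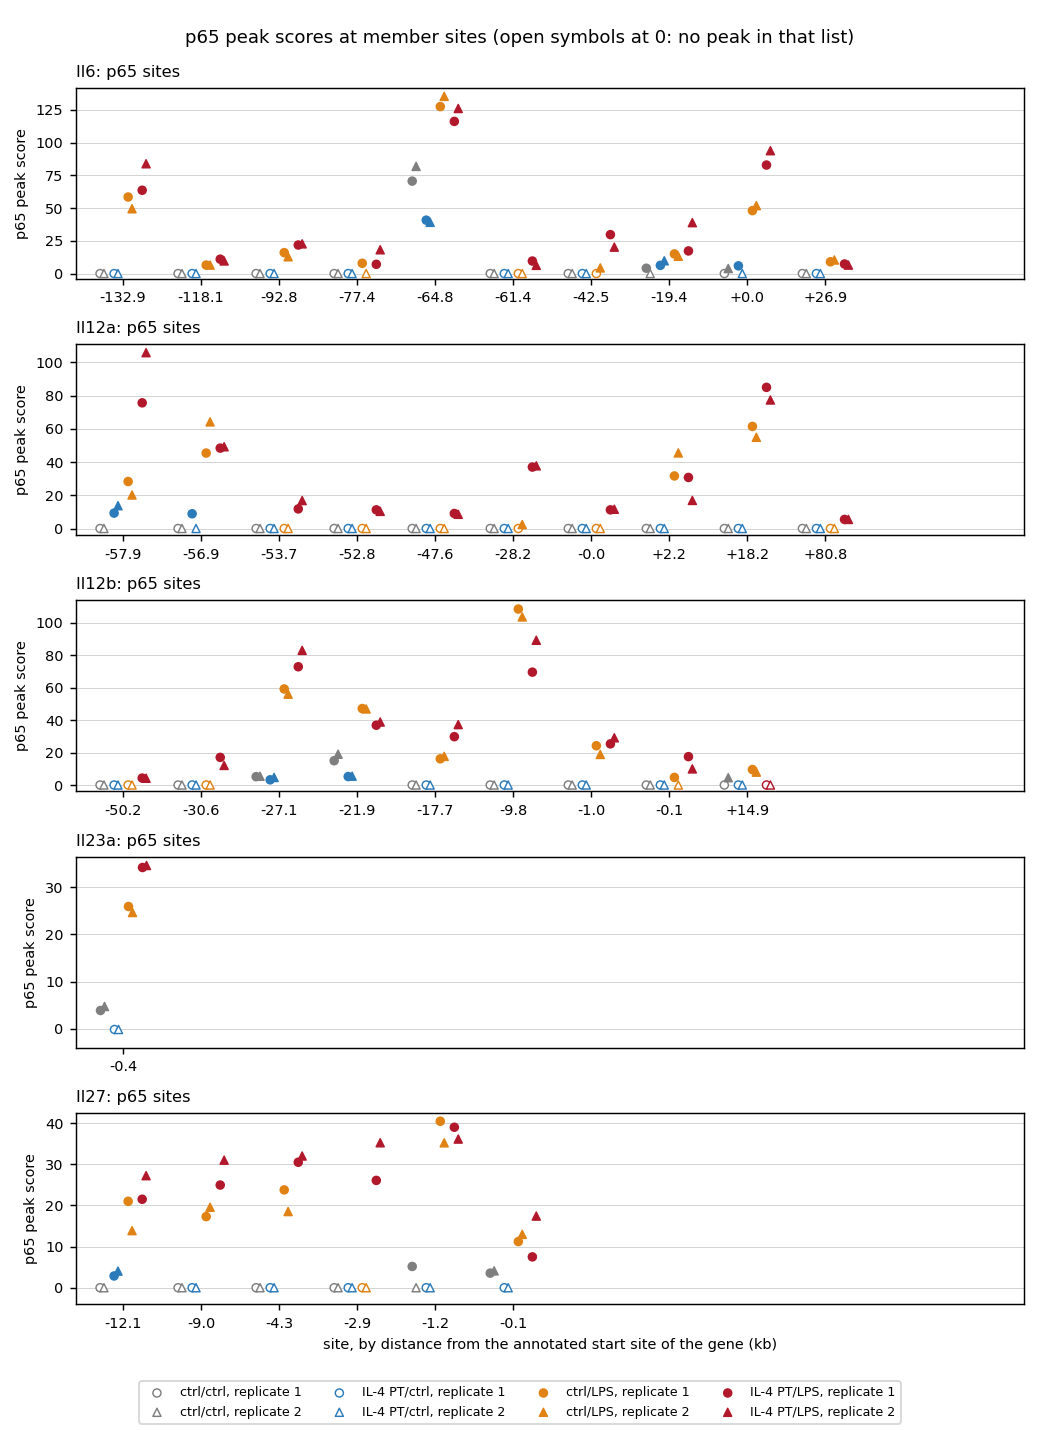
p65 peak score (y axis) at the 36 member sites with a peak in both lists of at least 1 condition or the highest mean for their gene, placed in order by distance from the start site in kb; colours are the 4 conditions, symbols the 2 lists, and open symbols at 0 mean no peak. Il12b -9.8 kb reaches 108 and 104 in ctrl/LPS, and Il12a -28.2 kb reaches 37.0 and 37.7 in IL-4 PT/LPS.

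Polymerase sites followed with 6 of 16 RNAPII-pS5 sites called, all higher, beside 34.5% of all sites, and 16 of 26 RNAPII-pS2 sites, 15 of them higher, beside 38%. Around Il6, RNAPII-pS2 at the start site rose from 9.05 and 8.9 to 23.2 and 27.3 (1.296 ± 0.25 log2 units, adjusted p = 0.0099, limma, n = 2 and 2). Peaks were listed only in LPS-treated cells at +7.4 kb, just past the end of Il6 (RNAPII-pS5 24.8 and 17.4, RNAPII-pS2 13.8 and 16.8 in ctrl/LPS). RNAPII-pS2 also marked -132.9 kb (22.6 and 14.0) and -92.8 kb (16.2 and 10.9), the distal sites where p65 appeared.

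The effect of IL-4 pretreatment in the absence of LPS was read from IL-4 PT/ctrl against ctrl/ctrl, which share the ctrl/ctrl lists with the LPS comparison. Il12a was higher for all 3 antibodies. Its RNAPII-pS2 scores were 9.83 and 6.25 in ctrl/ctrl and 32.0 and 37.2 in IL-4 PT/ctrl (2.20 ± 0.27 log2 units, adjusted p = 0.0051, limma, n = 2 and 2). Its RNAPII-pS5 (13.6 and 6.78) and p65 (18.1 and 13.7) peaks were present in IL-4 PT/ctrl and absent in ctrl/ctrl, with adjusted p = 0.013 and 0.0031. In the other direction, RNAPII-pS5 of Il23a fell from 13.7 and 11.7 to 3.63 and 4.78 (-1.68 ± 0.28, adjusted p = 0.017), again with its peaks at +4.6 kb except for 1 of 3.14 at +2.8 kb. These were the only member genes called: 2 for RNAPII-pS5 beside 8.97% of all genes, 1 for RNAPII-pS2 beside 15.1%, and 1 for p65 beside 8.6%. Both RNAPII-pS5 calls were lost without either ctrl/ctrl list, and 1 of them without either IL-4 PT/ctrl list.

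The Il12a signal sat at the far upstream cluster. At -57.0 kb RNAPII-pS2 scored 9.83 and 6.25 in ctrl/ctrl and 21.5 and 22.2 in IL-4 PT/ctrl (1.53 ± 0.28 log2 units, adjusted p = 0.012), RNAPII-pS5 had peaks of 7.72 and 6.78 in IL-4 PT/ctrl and none in ctrl/ctrl (adjusted p = 0.0026), and p65 at -57.9 kb likewise had 9.27 and 13.7 against no peak (adjusted p = 0.0068; limma, n = 2 and 2). A pair of p65 sites went down, Il12b -21.9 kb from 15.0 and 18.95 to 5.2 and 5.44 (-1.47 ± 0.19, adjusted p = 0.016) and the Il23a promoter from 3.92 and 4.88 to no peak (adjusted p = 0.012). RNAPII-pS2 at Il12b -17.7 kb went from 9.15 and 6.42 to no peak (adjusted p = 0.0023), and RNAPII-pS5 at Il23a +4.6 kb, next to Stat2, from 13.7 and 8.57 to 3.63 and 4.78 (-1.40 ± 0.33, adjusted p = 0.038). In all, 2 of 9 RNAPII-pS5, 2 of 15 RNAPII-pS2 and 3 of 13 p65 sites were called, beside 19%, 26.2% and 9.72% of all sites. Without either ctrl/ctrl list none of the 3 p65 calls held, and without IL-4 PT/ctrl replicate 1 a single one did; leaving out any one of the 4 lists compared left 1 of the 2 RNAPII-pS5 calls, and leaving out ctrl/ctrl replicate 2 or IL-4 PT/ctrl replicate 1 left 1 of the 2 RNAPII-pS2 calls.

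Under LPS, IL-4 PT/LPS was compared with ctrl/LPS, whose lists also serve the LPS comparison. By gene the p65 sums of all 5 genes were at least as high on average after pretreatment, yet no gene was called by limma. Of the 5, 0 had an unadjusted p of at most 0.05, beside 25.9% of all genes. Il12a had 167 and 187 in ctrl/LPS and 325 and 340 in IL-4 PT/LPS, Il6 288 and 289.5 against 377 and 452, and Il27 114 and 100.2 against 149.6 and 179. The general p65 shift between these conditions was 0.50 log2 units, in the same direction, and was subtracted in the test. Il12b (269 and 271 against 277 and 309) and Il23a (26.1 and 43.3 against 65.04 and 34.8) differed less or overlapped.

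The polymerase sums moved in different directions. For Il12a, RNAPII-pS5 scored 19.7 and 23.9 in ctrl/LPS and 54.4 and 48.6 in IL-4 PT/LPS, and RNAPII-pS2 78.1 and 70.0 against 130.2 and 115. For Il12b, RNAPII-pS5 scored 63.6 and 74.1 against 42.0 and 43.1, while RNAPII-pS2 overlapped (237 and 216 against 227 and 244). These gene sums were not called. At an unadjusted p of at most 0.05 there were 3 member genes for RNAPII-pS5 (beside 29.9% of all genes) and 1 for RNAPII-pS2 (beside 25.5%). Il23a, the p19 subunit, was the single called gene, with RNAPII-pS5 at 12.8 and 11.7 against 6.25 and 6.66 (-1.21 ± 0.28 log2 units, adjusted p = 0.045, limma, n = 2 and 2), a call that was lost without any one of the 8 lists. All of these peaks lay in the +4.6 kb element next to Stat2, and none at Il23a itself. For RNAPII-pS2 the Il23a sums were 31.1 and 28.5 against 14.4 and 9.03 and were not called. At the Il23a promoter (-0.4 kb) RNAPII-pS2 scored 26.7 and 25.2 in ctrl/LPS, and 6.55 and no peak in IL-4 PT/LPS. At +4.6 kb it scored 4.4 and 3.3 against 7.85 and 4.8. Neither site was called. The share of all genes called was 11.5% with RNAPII-pS5, 9.18% with RNAPII-pS2 and 12.6% with p65.

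The sites showed where the Il12a signal grew. At -57.9 kb p65 scored 28.3 and 20.2 in ctrl/LPS and 75.6 and 106 in IL-4 PT/LPS (1.64 ± 0.32 log2 units, adjusted p = 0.012), and at -57.0 kb RNAPII-pS5 scored 8.51 and 10.2 against 43.9 and 33.9 (1.86 ± 0.24, adjusted p = 0.0062) and RNAPII-pS2 21.7 and 23.7 against 61.6 and 51.8 (1.37 ± 0.28, adjusted p = 0.020; limma, n = 2 and 2). The neighbouring p65 site at -56.9 kb was similar in both, at 45.4 and 64.2 against 48.4 and 49.2.

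At 5 of the other Il12a p65 sites, peaks were listed in both IL-4 PT/LPS lists and in no other list of the experiment. They were -53.7 kb (11.8 and 16.8), -52.8 kb (11.2 and 10.3), -47.6 kb (9.03 and 8.54), the start site (11.2 and 11.6) and +80.8 kb (5.45 and 5.46). At -28.2 kb, one ctrl/LPS list had a peak of 2.37, the other none, and the IL-4 PT/LPS lists 37.0 and 37.7 (4.14 ± 0.30 log2 units, adjusted p = 0.00040). The sites at +2.2 kb (31.6 and 45.5 in ctrl/LPS, 30.7 and 16.9 in IL-4 PT/LPS) and +18.2 kb (61.4 and 54.9 against 84.9 and 77.3) had peaks in both groups and were not called. The -52.8 kb window carries both a κB and a STAT match, whereas -28.2 kb has neither, as printed above. RNAPII-pS2 at -52.8 kb was 4.19 and 4.8 against 14.1 and 16.9 (1.84 ± 0.24, adjusted p = 0.0037).

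At Il12b the sites moved apart. The -9.8 kb site, the strongest p65 site of the gene in ctrl/LPS, fell from 108 and 104 to 69.5 and 89.2 for p65 (-0.70 ± 0.19 log2 units, adjusted p = 0.038) and from 32.1 and 36.1 to 16.0 and 16.4 for RNAPII-pS5 (-1.26 ± 0.20, adjusted p = 0.012; limma, n = 2 and 2), while its RNAPII-pS2 scores of 126 and 124 and of 106 and 116 were not called different. Upstream, p65 at -17.7 kb rose from 16.1 and 17.7 to 29.8 and 37.2 (0.71 ± 0.18, adjusted p = 0.034). That call was lost in 11 of 16 alternative settings. The p65 call at -9.8 kb was lost in 12 of 16, including every fit that left out a list, and the RNAPII-pS5 call there in 4 of 16. Peaks at -30.6 kb (17.0 and 12.1) and -50.2 kb (4.27 and 4.16) were listed in IL-4 PT/LPS alone, and the +14.9 kb p65 peaks of ctrl/LPS (9.52 and 7.93) were missing there.

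For Il6, the promoter p65 peak scored 48.1 and 51.9 in ctrl/LPS and 82.9 and 93.8 in IL-4 PT/LPS and was not called, whereas -42.5 kb, with no peak and 4.32 in ctrl/LPS, reached 29.7 and 20.2 (3.10 ± 0.57 log2 units, adjusted p = 0.0098). RNAPII-pS5 at -64.8 kb fell from 29.7 and 39.4 to 18.1 and 14.0 (-1.29 ± 0.30, adjusted p = 0.040), where p65 was 128 and 135 against 116 and 126. At +26.9 kb p65 fell from 9 and 10.4 to 7.32 and 6.46 (-0.76 ± 0.19, adjusted p = 0.031; limma, n = 2 and 2). That call was lost in 11 of 16 alternative settings, and the RNAPII-pS5 call at -64.8 kb in 10 of 17. Il27 had p65 peaks at -2.9 kb in IL-4 PT/LPS alone (26.1 and 35.2), between sites that had been occupied in ctrl/LPS. This site passed the filter only through those lists, and its adjusted p of 0.00031 (limma) rests on the 1.31 put in for ctrl/LPS. The Il27 -1.2 kb site, with overlapping κB matches, was nearly level at 40.5 and 35.2 against 39.0 and 36.1.

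Counted over sites, 16 of the 39 member p65 sites with a peak in either group were called, 13 higher and 3 lower, where 31.7% of all p65 sites were called and 26% were called higher. For RNAPII-pS5 it was 5 of 18 (3 higher, 2 lower, beside 18.3%) and for RNAPII-pS2 7 of 30 (6 higher, 1 lower, beside 20.5%). Most of the 13 higher p65 sites had peaks in IL-4 PT/LPS alone and passed the filter only through those lists. Their calls rest on the value put in for ctrl/LPS. The lists themselves differ in size, with 26305 to 26820 p65 peaks in ctrl/LPS and 36738 to 38955 in IL-4 PT/LPS, and the part of this in the new sites was not tested. Leaving out either IL-4 PT/LPS list left 7 of the 16 p65 sites with peaks in enough lists to be tested, of which 1 was called. Leaving out a ctrl/LPS list left 14 or 12 called. For RNAPII-pS5, leaving out any one of the 4 lists compared kept 1 or 2 of the 5, and for RNAPII-pS2 2 to 4 of the 7.

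Whether the pretreatment effect differed with LPS was tested by the interaction term. It was called for p65 of Il12a at the gene level (adjusted p = 0.011), where no ctrl/ctrl list has a peak and the size of the term therefore depends on the value put in for a missing peak, beside 7.42% of all genes; the call was lost without either IL-4 PT/LPS list. No member gene was called for RNAPII-pS5 or RNAPII-pS2, beside 6.11% and 6.38%. At an unadjusted p of at most 0.05 there were 2 and 1, beside 22.6% and 22.4% of all genes. By site there were 11 for p65 (beside 23.2%), all in the direction of a larger rise with LPS, 3 for RNAPII-pS5 (beside 17.1%) and 6 for RNAPII-pS2 (beside 19.7%). Of the 11 p65 sites, 9 had peaks in IL-4 PT/LPS alone, and the remaining ones were Il12a -28.2 kb and the Il23a promoter, where pretreatment removed the peak without LPS and left 34.4 and 34.8 with it. Those 9 passed the filter only through the IL-4 PT/LPS lists. Their terms, and that of Il12a -28.2 kb, have only the put-in value without LPS and so restate the comparison under LPS. RNAPII-pS5 at Il12b -9.8 kb was the one with peaks in both LPS groups and lower after pretreatment (adjusted p = 0.036, limma, n = 2 lists in each of 4 groups). It had no peak in either group without LPS, so its term also restates the comparison under LPS. Without either IL-4 PT/LPS list, 2 of the 11 p65 sites could be tested and 1 was called, and leaving out any one list ended the 3 RNAPII-pS5 calls. Of the 6 RNAPII-pS2 sites, 3 were called without either ctrl/ctrl list, and 1 or none without an IL-4 PT/LPS list.

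After 1 hr of IL-4 the members moved apart as well. Il12b lost signal, with RNAPII-pS5 at 28.3 and 22.7 in ctrl and 5.83 and 5.11 in IL-4 (-2.17 ± 0.16 log2 units, adjusted p = 0.038) and H3K27Ac at 122 and 108 against 46.7 and 51.4 normalized tags (-1.22 ± 0.10, adjusted p = 0.0070; limma, n = 2 and 2). For Il12a no H3K27Ac region was listed in ctrl, and 53 and 23.3 normalized tags in 4 and 2 regions were listed in IL-4 (adjusted p = 0.048). Il12a passed the filter only through the IL-4 lists, so this call rests on the 9.1 put in for ctrl. It was lost in 6 of 8 alternative settings. Of all genes 1.05% were called for RNAPII-pS5 and 32.8% for H3K27Ac. Most of the RNAPII-pS5 loss was at -21.9 kb, with 19.3 and 13.8 in ctrl and 5.83 and no peak in IL-4. By site, however, none of the 7 tested member RNAPII-pS5 sites was called, this one included, beside 2.97% of all sites. The RNAPII-pS5 call was lost without any one of the 4 lists, and without any one H3K27Ac list 1 of the 2 genes was called.

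**Figure D3:**
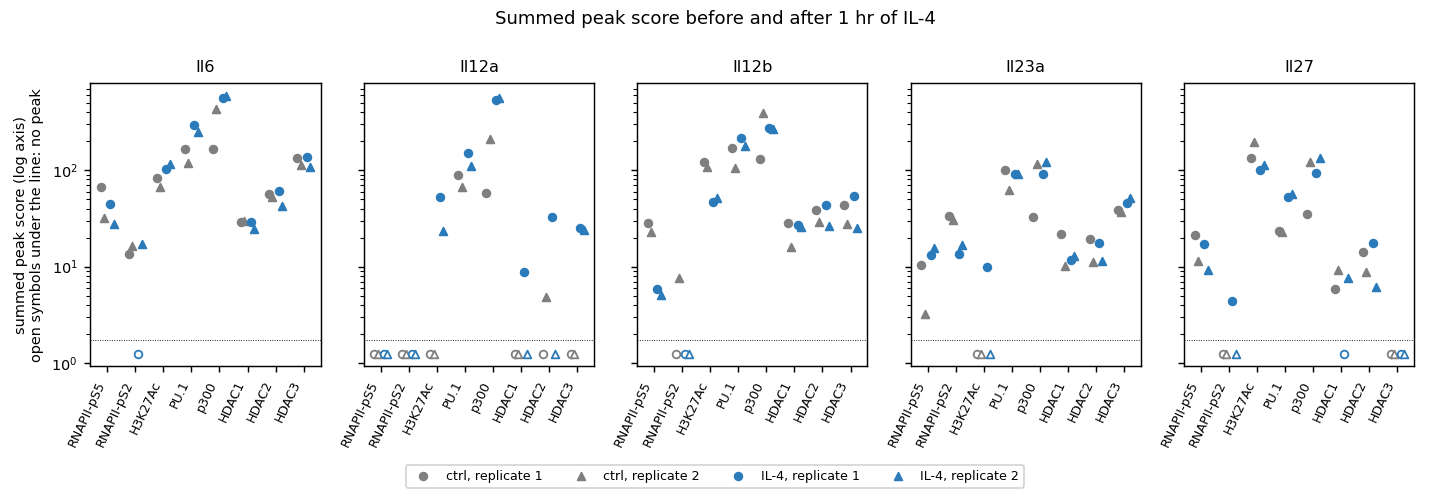
Summed peak score of each gene (panels) for 8 antibodies (x axis) on a log axis, in ctrl and after 1 hr of IL-4; symbols are the 2 lists, and open symbols under the dotted line mean no peak. RNAPII-pS5 of Il12b is at 28.3 and 22.7 in ctrl and at 5.83 and 5.11 in IL-4.

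Il6, Il23a and Il27 were not called for these antibodies. RNAPII-pS5 of Il6 was 67.4 and 31.9 against 44.8 and 27.5, and of Il27 21.1 and 11.5 against 17.2 and 9.2, with overlapping groups. H3K27Ac of Il6 was 82.9 and 66.5 against 102 and 114.5, and of Il27 134.5 and 196 against 100 and 112.5. RNAPII-pS2 of Il23a was 33.9 and 30.2 in the lists labelled ctrl and 13.6 and 16.6 in those labelled IL-4, all of it at +4.6 kb, and these are the lists whose peak names carry the opposite treatment.

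The H3K27Ac sites gave the detail. At Il12b, all 3 sites listed in both ctrl lists lost acetylation, -27.0 kb from 40.2 and 46.5 to 25.2 and 26.4 (-0.69 ± 0.10 log2 units, adjusted p = 0.016), +14.9 kb from 47 and 39.7 to 21.5 and 25 (-0.84 ± 0.13, adjusted p = 0.017), and -21.9 kb from 21.8 and 21.6 to no region (adjusted p = 0.0015; limma, n = 2 and 2). At Il6, -64.8 kb rose from 12.3 and 12.5 to 33.1 and 42 (1.64 ± 0.14, adjusted p = 0.0050), and -19.4 kb had regions after IL-4 alone (11.6 and 13.5, adjusted p = 0.026). Downstream at +23.0 kb the scores of 56.8 and 54 against 45.4 and 43 went the other way and were not called (adjusted p = 0.052). Il12a had new regions at -28.2 kb (12.3 and 11.8, adjusted p = 0.014) and -13.5 kb (11.9 and 11.5, adjusted p = 0.016), where the lowest value given to any region was 9.1. Altogether 7 of 10 tested member sites were called, 4 higher and 3 lower, beside 40.3% of all sites. Il6 -19.4 kb, Il12a -28.2 kb and Il12a -13.5 kb entered the test only through the IL-4 lists, and Il12b -21.9 kb only through the ctrl lists. Their calls therefore rest on the 9.1 put in for the other group. Without any one list 2 or 3 of the 7 were called.

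p300 named the same Il12a element. At -28.2 kb it scored 5.33 and 15.2 in ctrl and 158 and 151 in IL-4 (3.43 ± 0.28 log2 units, adjusted p = 0.047), the 1 called among 38 tested member sites, beside 2.46% of all p300 sites. The list of ctrl replicate 1 is smaller, with 44787 peaks against 66710 to 69360 in the other 3, and scores were 0.67 log2 units higher in IL-4 in general; without that list the site was still called, and without either IL-4 list it was not. Other Il12a sites showed the same order without a call, -57.9 kb at no peak and 17.7 against 111 and 125, -52.8 kb at no peak against 58.4 and 64.5, and +68.2 kb at no peak and 12.4 against 58.6 and 68.0. Il6 -19.4 kb had 16.7 and 42.9 against 100.3 and 147. At Il12b the ctrl lists spanned the IL-4 lists at -21.9 kb (61.4 and 156 against 126 and 101). Over the 45 member p300 windows, the spaced-by-4 STAT letters stood in 10, where 10.2% of all 81214 windows held them.

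**Figure D4:**
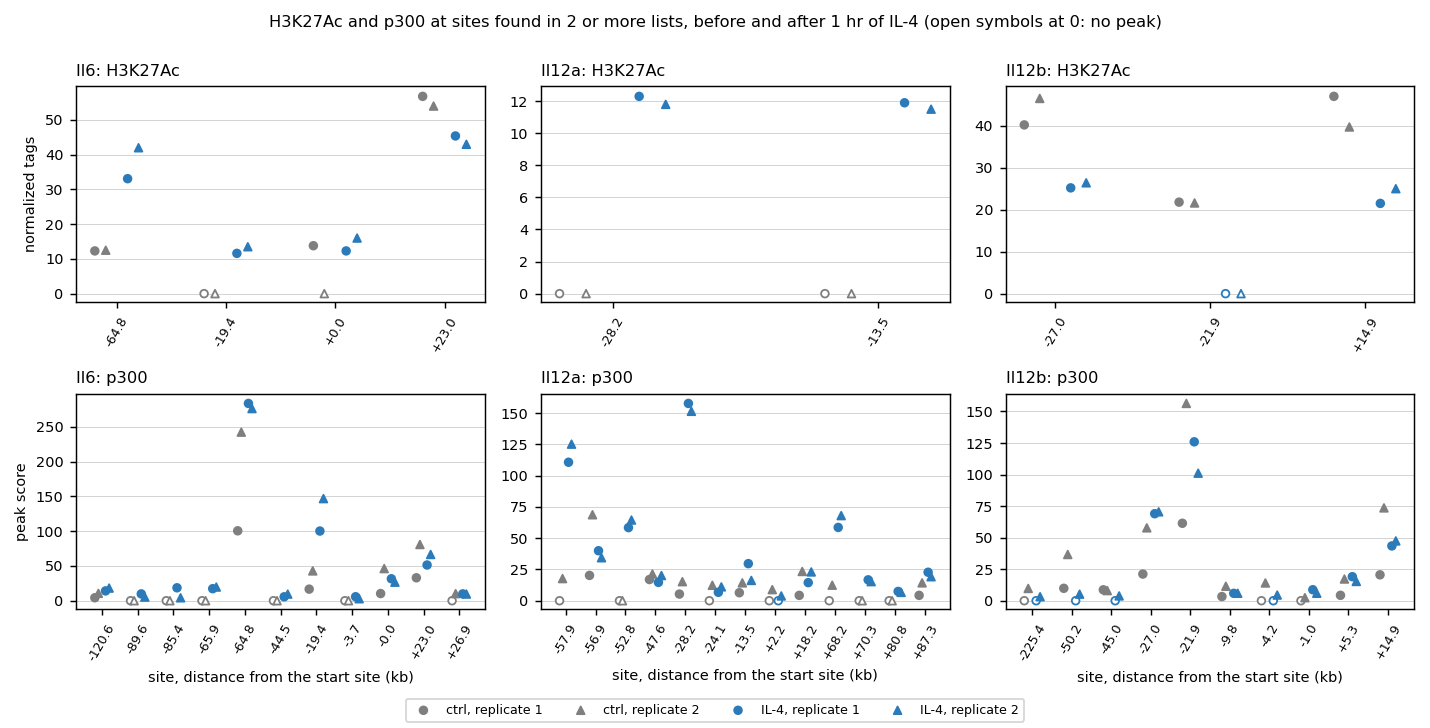
H3K27Ac (top, normalized tags) and p300 (bottom, peak score) at sites of Il6, Il12a and Il12b listed in 2 or more lists, in order of distance from the start site in kb, in ctrl and after 1 hr of IL-4; symbols are the 2 lists and open symbols at 0 mean no peak. p300 at Il12a -28.2 kb is at 158 and 151 after IL-4 and at 5.33 and 15.2 in ctrl.

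For PU.1 and the deacetylases no member passed the test. No member gene or member site was called for PU.1, HDAC1, HDAC2, HDAC3 or RNAPII-pS2 after 1 hr of IL-4, and over the whole lists limma called 0 genes and 0 sites for each, with 8.86% to 16.8% of genes at an unadjusted p of at most 0.05, among them 1 member gene each for PU.1, HDAC3 and RNAPII-pS2. At the same unadjusted level there were 4 of 24 tested member sites for PU.1 (beside 12.1% of all sites) and 3 of 7 for HDAC3 (19.3%). There was 1 of 8 for HDAC1 (14%), 1 of 11 for HDAC2 (13.9%) and 1 of 2 for RNAPII-pS2 (21.6%). PU.1 was present at all 5 genes before and after, for example at Il6 -64.8 kb (90.2 and 69.6 against 109.5 and 119), Il12b -21.9 kb (82.4 and 74.8 against 104 and 109.8) and the Il23a promoter (93.7 and 62.6 against 88.2 and 88.2). Summed PU.1 scores of Il6 were 166 and 119 against 292 and 247. HDAC3 was strongest at Il6 -64.8 kb (126 and 112 against 136 and 108), and its Il12a peaks were listed in IL-4 alone, with summed scores of 24.9 and 23.7 in 3 peaks each.

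The wider pathway was read from 28 further genes for the partner subunit EBI3, receptors, Janus kinases and STATs, IL-6 family ligands and regulators of the members. With LPS, 3 of the 21 tested were called higher in the RNAPII-pS5 lists, while for RNAPII-pS2 it was 2 of 23 and for p65 5 of 26, where 8.82%, 12.3% and 21% of all genes were called higher. Over the tested pathway genes, the median LPS change was 0.41 log2 units in RNAPII-pS5 against -0.45 over all genes, 0.24 in RNAPII-pS2 against -0.27, and -0.06 in p65 against 0.17. Lif, a ligand of the IL-6 family, was called for all 3 antibodies, with p65 at 4.11 and 4.42 in ctrl/ctrl and 205 and 215.5 in ctrl/LPS (3.99 ± 0.68 log2 units, adjusted p = 0.0081) and RNAPII-pS2 at 23.5 and 35.3 against 173 and 169 (2.35 ± 0.36, adjusted p = 0.0065; limma, n = 2 and 2). Rel, the NF-κB subunit c-Rel, had p65 at 28.1 and 38.8 against 245 and 258 (1.29 ± 0.27, adjusted p = 0.016), and Jak2 14.4 and 8.05 against 124 and 111 (1.80 ± 0.42, adjusted p = 0.021). Bcl3, Cntf, Ebi3, Il12rb2 and Il6st were called lower for p65 beyond the general shift, but scores of Bcl3, Ebi3 and Il6st were higher in ctrl/LPS than in ctrl/ctrl without its subtraction. Ebi3, the partner of p28, scored 51.2 and 51.6 in ctrl/ctrl and 76.8 and 79.2 in ctrl/LPS for p65.

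With pretreatment alone, RNAPII-pS5 fell for Nfkbiz, which encodes IκBζ, a known requirement for Il6 and Il12b induction (204 and 202 to 82.6 and 88.4; -1.32 ± 0.25 log2 units, adjusted p = 0.028), and for Stat3 (14.2 and 17.9 to 5.07 and 6.02; -1.60 ± 0.30, adjusted p = 0.025), 2 of 21 tested beside 8.97% of all genes. RNAPII-pS2 of Ebi3 went from 16.9 and 23.6 to no peak and 3.67 (-3.08 ± 0.48, adjusted p = 0.012), the 1 called of 23 beside 15.1%, and for p65 Clcf1 was called higher and Tyk2 lower, 2 of 26 beside 8.6%. Under LPS, pretreated cells lacked the RNAPII-pS5 peaks of the receptor gene Il12rb1 (4.88 and 10.1 in ctrl/LPS, adjusted p = 0.019) and of Stat4 (13.4 and 9.64, adjusted p = 0.0080) and had RNAPII-pS2 peaks at the receptor gene Il27ra (9.44 and 12.7, adjusted p = 0.0023) that ctrl/LPS lacked. These were 2 of 21 beside 11.5% of all genes and 1 of 23 beside 9.18%. Il27ra had RNAPII-pS2 peaks in IL-4 PT/LPS alone, so its call rests on the value put in for ctrl/LPS. For p65 under LPS, 2 were called higher (Cntf and Il12rb2) and 1 lower (Bcl3), of 26 tested, beside 12.6%.

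After 1 hr of IL-4, H3K27Ac was called higher for 4 of 23 tested (Il6st, Jak2, Rel and Zc3h12a) and lower for 3 (Bcl3, Cebpd and Nfkbiz), 7 in all, where 32.8% of all genes were called. Cebpd, a C/EBP factor that binds the Il6 promoter, had the largest change of the 7, from 467 and 493 to 135 and 111 normalized tags (-1.97 ± 0.12 log2 units, adjusted p = 0.0047). Nfkbiz went from 1413 and 1508 to 818.5 and 862 (-0.79 ± 0.07, adjusted p = 0.0083) and Zc3h12a, which encodes the RNase Regnase-1, from 1075 and 1012 to 1903 and 1949.5 (0.89 ± 0.06, adjusted p = 0.0051; limma, n = 2 and 2). No pathway gene was called for the other 7 antibodies.

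The genes whose summed scores were most alike to each member over the 24 lists of the pretreatment experiment, among 10105 genes and with each antibody centred on its own mean, were Peli1 for Il6 (Pearson r = 0.904), Mtnr1b for Il12a (0.960), 4933425H06Rik for Il12b (0.958), Gm8369 for Il23a (0.843) and Atp2b4 for Il27 (0.936). Next came Mir3095 (0.894) and Gbp5 (0.892) for Il6, Csrnp1 (0.958) and 6030466F02Rik (0.954) for Il12a, and 1700019E08Rik (0.953) and Gm10125 (0.928) for Il12b. For Il23a they were Fignl1 (0.838) and Tmem67 (0.829), and for Il27 4933406D12Rik (0.933) and D330050G23Rik (0.932). The points share lists and their sizes, so these r values are descriptions without a test.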

How the data were processed

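ChIP-seq peak lists of mouse bone marrow-derived macrophages were analysed as deposited. Per the submitters' processing notes the authors used BWA 0.7.10, SAMtools 0.1.19, HOMER 4.2 and MACS2 2.0.10 with mm10, and peaks were called per sample; an input control is not given in the sources used here. The deposited peak score was taken as the -log10 of the p-value or q-value from MACS2 (which of them is not stated), and for H3K27Ac the deposited value is a signal, the HOMER normalized tag number of a region of fixed width. Scores below the -log10 of the stated q cut-off of 0.01 occur, so the unit is not settled. Samples were grouped by their labels. The members and gene lists were chosen with earlier results of these data known.

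Scores were summed per gene name. Sites were made by merging peaks of 1 antibody overlapping by at least 1 bp in any list, and a site took the highest score of its peaks in a list. Features with a peak in at least 2 lists were kept, lists without a peak of a feature received the lowest score of that antibody (1.31 for p65), values were taken to log2, and each list was centred on the median of features present in all lists. limma 3.58.1 (R 4.3.3) was fitted over all genes or sites of 1 antibody and experiment, with all groups of the experiment in the fit and Benjamini-Hochberg adjustment; called means an adjusted p of at most 0.05 with a peak in a group compared. The requirement of a peak was chosen after seeing the data. With 2 against 2 lists an exact permutation test cannot go below p = 0.333. No fold is given against a group without a peak. A feature listed in 1 group alone passed the filter through that group, so its adjusted p rests on the value put in for the other. The script was tested on simulated data. Sites named one by one are, for each member and antibody, the one with the highest mean score, and every p65 site with a peak in both lists of a condition; other sites named were chosen after their values were seen. Depth is unknown, so the number of peaks stands in for it. Python 3.11.15, pandas 2.3.3 and pysam 0.24.0 were used for the rest. Alternatives were another missing value, the highest score, no centring, ranks, no filter, a peak in every sample, non-intergenic peaks, the upper 50% of peaks, the replicate block and leaving out each list. Same-numbered lists did not deviate together (r of -0.02 to 0.07 in the 1 hr experiment and -0.03 to 0.02 in the other), so the numbers were not taken to pair them. No 2 lists were identical. The values of 1 gene of the pathway list are not reported here.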

Additional observations from a re-analysis of the deposited data

Results flagged for a closer look

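In 13 results the interaction term of the limma fit was called, which compares the effect of IL-4 pretreatment with and without LPS. For p65 at the gene level, Il12a had a term of -3.33 log2 units: its p65 sum was larger after pretreatment in both settings, from no peak without LPS and from 167 and 187 with it. RNAPII-pS5 at Il12b -9.8 kb had -1.25 (listed in LPS-treated cells alone, 32.1 and 36.1 without and 16.0 and 16.4 with pretreatment). The other 11 were p65 sites with a larger rise under LPS. Around Il12a they were -53.7 kb (2.96), -52.8 kb (2.57), -47.6 kb (2.28), -28.2 kb (3.94), the start site (2.66) and +80.8 kb (1.59). The Il12b sites were -50.2 kb (1.22) and -30.6 kb (2.99), and the last ones were Il23a -0.4 kb (1.72), Il6 -61.4 kb (2.10) and Il27 -2.9 kb (4.07). All 13 terms involve a group without a peak. For the p65 terms the size depends on the lowest score of 1.31 put in for a missing peak. For RNAPII-pS5 at Il12b -9.8 kb both groups without LPS take the same put-in value, which cancels. Where no list without LPS had a peak, the term restates the comparison under LPS and is not a separate result. The p65 lists of IL-4 PT/LPS are also the largest of that antibody, and the part of this in the 11 sites was not tested.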

How the results depend on the processing

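Of 694 recomputed counts of called members, 518 stayed within 1.5 times the reported value. Of 1275 recomputed single changes, 1052 kept direction and side of the threshold, 208 lost the call and 15 reversed. The p65 LPS count of 27 sites includes 9 without a peak in either group, moved by the centring alone, so 18 are reported; requiring a peak moved no other count by over 1.5 times. The cause of the changes below was not tested, except that leaving out a list or asking for a peak in every list removes features from the test.

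The counts below that fell or rose are given as reported value to alternative. With a missing value 4 times as high, gene counts were H3K27Ac 2 to 1, HDAC3 0 to 1, RNAPII-pS5 2 to 1 (pretreatment alone), 1 to 2 (under LPS) and 0 to 1 (interaction), RNAPII-pS2 interaction 0 to 1 and p65 alone 1 to 2, and site counts were 1 hr RNAPII-pS5 and RNAPII-pS2 0 to 1, H3K27Ac 7 to 1, p300 1 to 0, RNAPII-pS5 alone 2 to 0 and RNAPII-pS2 interaction 6 to 3. With the highest score in place of the sum, gene counts were RNAPII-pS5 1 to 0 at 1 hr, 2 to 1 alone and 1 to 3 under LPS, and p65 1 to 3 alone and 1 to 2 for the interaction. Without centring, p65 LPS genes were 3 to 5, p65 alone 1 to 2 and under LPS 0 to 1, RNAPII-pS5 under LPS 1 to 0, p300 sites 1 to 0 and RNAPII-pS5 sites alone 2 to 1. Without the filter, 1 hr RNAPII-pS5 genes were 1 to 0, H3K27Ac genes 2 to 1, RNAPII-pS5 genes under LPS 1 to 0, p300 sites 1 to 0, RNAPII-pS5 sites alone 2 to 1 and interaction 3 to 1. With non-intergenic peaks, genes were 1 hr RNAPII-pS5 1 to 0, H3K27Ac 2 to 0, RNAPII-pS5 LPS 4 to 2 and alone 2 to 1, RNAPII-pS2 alone 1 to 0, and p65 alone and interaction 1 to 0. Fitting the 4 lists compared gave RNAPII-pS5 genes alone 2 to 0 and under LPS 1 to 0, p65 genes alone 1 to 0, RNAPII-pS5 sites alone 2 to 1, p65 LPS sites 27 to 17 and alone 3 to 1. With a peak in every list, genes were 1 hr RNAPII-pS5 1 to 0, p300 0 to 1, RNAPII-pS5 LPS 4 to 2, alone 2 to 1 and under LPS 1 to 2, and p65 interaction 1 to 0, and sites were p300 1 to 2, RNAPII-pS5 6 to 1, 2 to 1, 5 to 1 and 3 to 0, RNAPII-pS2 16 to 4, 2 to 1, 7 to 1 and 6 to 0, and p65 27 to 1, 3 to 1, 16 to 0 and 11 to 0 (LPS, alone, under LPS, interaction). Ranks gave genes 1 to 0 for 1 hr RNAPII-pS5 and for RNAPII-pS5 under LPS and 0 to 1 for p300, and sites 1 to 5 for p300 and 3 to 1 for the RNAPII-pS5 interaction. The upper 50% of peaks gave genes H3K27Ac 2 to 1, RNAPII-pS5 LPS 4 to 2 and alone 2 to 1, RNAPII-pS2 alone 1 to 0, p65 alone and interaction 1 to 2, and sites 1 hr RNAPII-pS5 0 to 1, H3K27Ac 7 to 1, PU.1 0 to 3, p300 1 to 0, HDAC1 and HDAC2 0 to 1, RNAPII-pS5 LPS 6 to 3 and alone 2 to 1, and RNAPII-pS2 LPS 16 to 8 and alone 2 to 1.

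At an unadjusted p of at most 0.05, 1 hr genes were RNAPII-pS5 2, RNAPII-pS2 1, PU.1 1, p300 2 and HDAC3 1, and sites RNAPII-pS5 3, RNAPII-pS2 1, PU.1 4, p300 11, HDAC1 1, HDAC2 1 and HDAC3 3. In the other experiment genes were RNAPII-pS5 3 under LPS and 2 for the interaction, RNAPII-pS2 1 and 1, and p65 3 alone and 2 for the interaction, and sites RNAPII-pS5 8 and RNAPII-pS2 12 under LPS, and p65 7 alone and 18 for the interaction. For these comparisons, the shares of all genes or sites at that level ran from 10.2% (PU.1 genes) to 33.1% (p65 interaction sites).

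The replicate numbers do not pair the lists; the replicate block took 1 hr RNAPII-pS5 genes from 1 to 0, H3K27Ac genes 2 to 1, RNAPII-pS5 genes under LPS 1 to 0, p300 sites 1 to 0, and RNAPII-pS5 sites alone 2 to 1 and interaction 3 to 1, and moved no other count by over 1.5 times.

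Leaving out 1 list at a time, genes ranged from 0 to 0 for 1 hr RNAPII-pS5, 1 to 1 for H3K27Ac, 0 to 1 for p300, 0 to 2 for RNAPII-pS5 alone, 0 to 0 under LPS, 1 to 2 for RNAPII-pS2 alone, 0 to 1 for its interaction and 0 to 1 for the p65 interaction. Sites ranged from 2 to 3 for H3K27Ac, 0 to 6 for p300, for RNAPII-pS5 1 to 2 alone, 2 to 5 under LPS and 0 to 1 for the interaction, for RNAPII-pS2 1 to 2, 2 to 7 and 0 to 6, and for p65 0 to 4, 1 to 16 and 1 to 13.

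Reversed changes, on the log2 scale, were Il12b with non-intergenic peaks (-1.16 for RNAPII-pS5 and -3.38 for RNAPII-pS2 with LPS) and Il6 RNAPII-pS5 with the highest score (-0.0768 with LPS). With the higher missing value they were Il27 -12.1 kb RNAPII-pS2 (-0.18), p65 LPS at Il6 -118.1 kb (-0.74) and +26.9 kb (-0.16), p65 alone at Il23a -0.4 kb (0.19), p65 under LPS at Il12b -50.2 kb (-0.27) and Il12a +80.8 kb (-0.21), and their interactions (-0.46 and -0.41) with that of Il23a -0.4 kb (-0.0222). With the upper 50% of peaks they were p65 LPS at Il6 -118.1 kb (-0.90), and Il23a -0.4 kb alone (0.30) and interaction (-0.041).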
